A study of Mus musculus with 16 samples.

Results

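The nuclear-encoded subunits of the 5 complexes of oxidative phosphorylation were examined in air-liquid interface cultures of mouse airway epithelium. Members were chosen by gene symbol, among genes with a probe set that carries 1 symbol. Ndufa11 and Ndufs6, whose probe sets are shared with Ndufa11b and Ndufs6b, were left out by this rule. Chosen symbols began with Ndufa, Ndufb, Ndufc, Ndufs, Ndufv, Uqcr, Cox4i, Cox5, Cox6, Cox7, Cox8 or Atp5, together with the 4 Sdh genes and Cyc1, without the Ndufaf assembly factors. This gave 83 of the 18193 genes on the array: 36 for complex I, 4 for complex II, 9 for complex III, 17 for complex IV and 17 for complex V. Grouping follows the symbol, so Ndufa4, now regarded as a component associated with complex IV, and Cox7a2l, a supercomplex factor, stand with the complexes their symbols name. The 16 cultures, 1 array each, came from C57BL/6 mice and formed 4 groups of 4: Mmp7-/- (Mmp7-null) scratched, Mmp7-null uninjured, wild-type scratched and wild-type uninjured. Scratched cultures received 3 scratches, and all 16 cultures were kept in medium without serum for 24 hours before RNA was isolated. The labels give neither the age nor the sex of the mice, nor the time between scratch and harvest, nor which cultures shared an animal, so p-values measure only the spread between these cultures, which may be technical.

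Oxidative phosphorylation passes electrons from NADH (at complex I) and succinate (at complex II) through complexes III and IV to oxygen, and uses the proton gradient built on the way to make ATP in complex V. Each complex except complex II joins subunits encoded in mitochondrial DNA with a larger number made from nuclear genes, which are the genes measured here. In the airway epithelium the multiciliated cells are rich in mitochondria, which supply ATP for ciliary beating. Several subunits of complex IV exist as a widely expressed form and a tissue-restricted form encoded by separate genes.

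Promoters are shown for 3 members: Cox6b2, the tissue-restricted form of a complex IV subunit and the member with the largest called change, its widely expressed counterpart Cox6b1, and Uqcr10, a small complex III subunit with the largest called decrease. Each window runs from 250 bases before to 50 bases after the start of the RefSeq transcript on GRCm38.p6. The windows lie on the minus strand at chr7:4753045-4753344 for Cox6b2, chr7:30626065-30626364 for Cox6b1 and chr11:4704295-4704594 for Uqcr10. Capitals mark matches on either strand to CCGGAAG, the core bound by ETS factors such as GABP, and to CCAAT, the box bound by NF-Y.
Cox6b2: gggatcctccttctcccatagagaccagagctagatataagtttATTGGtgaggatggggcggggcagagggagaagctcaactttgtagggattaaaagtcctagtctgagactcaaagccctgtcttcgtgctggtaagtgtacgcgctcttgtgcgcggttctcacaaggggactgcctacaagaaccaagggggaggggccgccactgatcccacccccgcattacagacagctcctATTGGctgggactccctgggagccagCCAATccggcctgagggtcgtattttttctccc
Cox6b1: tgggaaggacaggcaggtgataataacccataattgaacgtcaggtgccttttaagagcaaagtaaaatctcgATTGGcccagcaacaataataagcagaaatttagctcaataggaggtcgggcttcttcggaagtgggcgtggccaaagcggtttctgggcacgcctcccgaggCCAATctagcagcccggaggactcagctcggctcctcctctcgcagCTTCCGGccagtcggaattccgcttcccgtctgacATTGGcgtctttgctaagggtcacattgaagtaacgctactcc
Uqcr10: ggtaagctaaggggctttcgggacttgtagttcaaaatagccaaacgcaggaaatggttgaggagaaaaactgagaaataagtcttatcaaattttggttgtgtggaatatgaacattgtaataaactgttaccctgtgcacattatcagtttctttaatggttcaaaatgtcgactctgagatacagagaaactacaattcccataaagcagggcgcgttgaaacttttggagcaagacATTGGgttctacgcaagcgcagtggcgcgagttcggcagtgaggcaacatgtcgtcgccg
The Cox6b2 window holds 3 CCAAT matches and no ETS core. The Cox6b1 window holds 3 CCAAT matches and 1 ETS core, read on the strand opposite to the gene, and the Uqcr10 window holds 1 CCAAT match.

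Of the 83 members, 76 had a mean above background, taken as the 95th percentile (2.97 on the log2 scale) of control transcripts absent from an array. Over all genes 64.1% lay above it. The 7 members at background were the tissue-restricted complex IV isoforms Cox4i2, Cox6a2, Cox7b2, Cox8b and Cox8c, the Ndufa4 paralog Ndufa4l2, and Ndufb4, whose brighter probe sets are shared with the copies Ndufb4b and Ndufb4c and were left out. The transcript of Mmp7 itself read 2.13 to 2.59 on all 16 arrays, also in wild-type cultures, so it could not check the genotype labels. Epithelial identity markers were well detected (10 of 11 above background), among them Epcam and Krt19, while Nkx2-1 was at background.

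Replicate 1 of the Mmp7-null scratched group stood apart. It read below the mean of its 3 partners for 69 of the 76 detected members (90.8%), against 73.2% of all detected genes, with a median difference of -0.20 for the members and -0.13 for all detected genes. The upper quartile of its intensities was 119.13, against 127.73 to 133.17 on the other 7 Mmp7-null arrays; the lowest of all 16 arrays was wild-type scratched replicate 3, at 115.01. Called changes of members in comparisons that use this array, and many medians and list counts, are therefore also given without it. So are most of the uncalled members named below. A value printed alone was not shown to be unaffected by this array. On replicate 4 of the wild-type scratched group the members had their highest mean, and the 3′ and 5′ ends of the actin transcript differed by 2.62, against 1.53 to 1.93 on the other arrays. These 2 arrays and wild-type scratched replicate 3 were also left out together, as the 3 arrays that stood apart.

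Averaged over all 76 detected subunits, the group means lay close to each other. The members' mean deviation from each gene's own mean was -0.07 ± 0.10 in Mmp7-null scratched, 0.05 ± 0.04 in Mmp7-null uninjured, 0.04 ± 0.06 in wild-type scratched and -0.02 ± 0.04 in wild-type uninjured cultures (log2, SD, n = 4 each). The lowest Mmp7-null scratched array was at -0.20 and its partners at -0.07 to 0.01, so that 3 of the 4 arrays lay inside the range of the wild-type uninjured group.

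**Figure D1:**
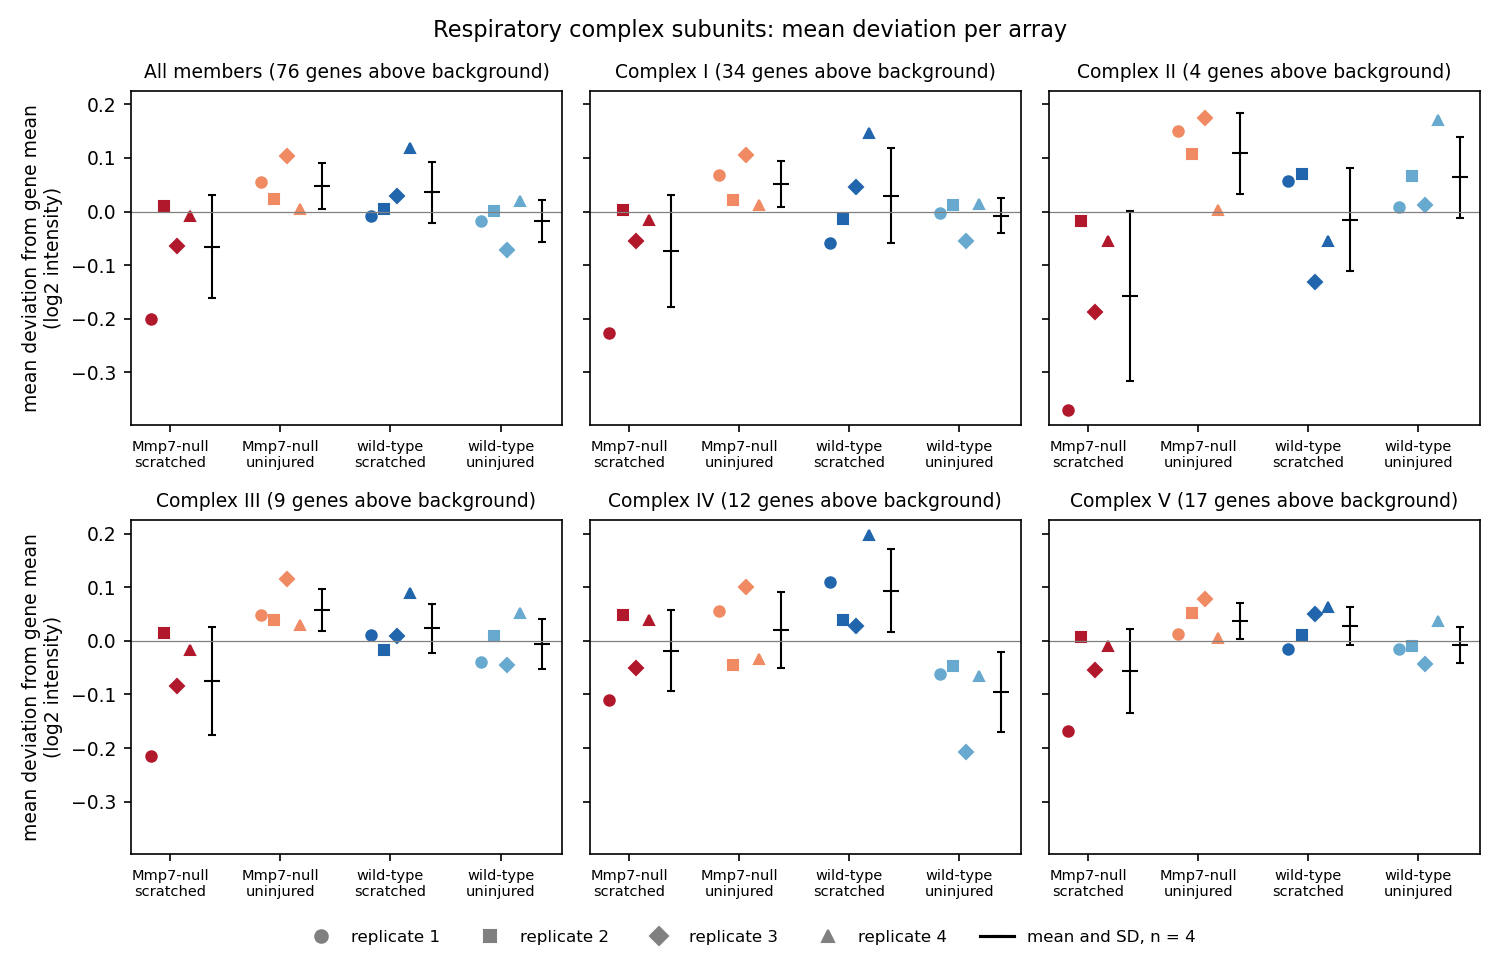
Mean deviation of detected subunits from each gene's mean over 16 arrays (vertical axis, log2 intensity), for all members and for each complex, with the 4 groups along the horizontal axis; symbols mark replicates, and bars give mean and SD (n = 4). In 5 of the 6 panels Mmp7-null scratched replicate 1 (dark red circle) lies lowest of all arrays; in complex IV the lowest is wild-type uninjured replicate 3 at -0.21.

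Of the 83 members, 7 passed the test in at least 1 comparison. The test was limma with Benjamini-Hochberg adjustment over all 18193 genes and a threshold of 0.05. After scratch in the Mmp7-null genotype 1 of 83 rose (1.2%, beside 2.27% of all genes) and 4 fell (4.82%, beside 2.45%). On scratching wild-type cultures 2 rose (2.41%, beside 2.55%) and 0 fell (beside 2.3%). In scratched Mmp7-null cultures 0 were higher than in scratched wild-type ones (beside 3.29%) and 1 was lower (beside 2.92%). In uninjured Mmp7-null cultures 1 was higher than in uninjured wild-type ones (beside 2.3%) and 0 lower (beside 2.5%). The scratch response of Mmp7-null cultures was called different from that of wild-type cultures in 0 members, beside 0.0275% of all genes with a more positive and 0.104% with a more negative Mmp7-null response. These counts are near the background or rest on 1 to 4 genes. The shares of all genes, here and below, also count genes that were at background on the arrays. Among the 76 detected members, all Mmp7-null scratched arrays lay above all wild-type scratched ones in 0 (beside 6.49% of all detected genes) and below them in 9 (11.8%, beside 9.71%). Mmp7-null uninjured arrays lay above wild-type uninjured ones in 8 (10.5%, beside 8.42%) and below in 2 (2.63%, beside 9.6%). Scratched arrays lay above uninjured ones in 1 member in Mmp7-null (beside 6.34%) and 5 in wild-type cultures (beside 6.38%), and below in 13 in Mmp7-null (17.1%, beside 10.4%) and 0 in wild-type cultures (beside 9.04%).

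At an unadjusted p under 0.05 in limma, 1 member was higher and 30 were lower after scratch in Mmp7-null cultures, and 11 were higher and 1 lower after scratch in wild-type cultures. For genotype there were 0 higher and 23 lower in scratched cultures, and 10 higher and 1 lower in uninjured ones. The difference between the scratch responses gave 0 higher and 19 lower. Without Mmp7-null scratched replicate 1, the 30 became 20, the 23 became 9 and the 19 became 15. The members share arrays and are not independent of each other, and the comparisons share groups. Counts over all genes at this unadjusted threshold are not given here, so these numbers do not set the members apart from other genes.

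Median changes were small. The median log2 fold change of the 76 detected members was -0.11 for scratch in the Mmp7-null genotype, beside -0.04 for all detected genes, and 0.04 for scratch in wild-type cultures, beside -0.03; the wild-type value became -0.003 when each array was centred on its median. For genotype it was -0.11 in scratched cultures, beside -0.03, and 0.06 in uninjured cultures, beside -0.005. The scratched value was -0.01 without the 3 arrays that stood apart and -0.03 with arrays weighted by their quality. The difference between scratch responses had a median of -0.16, beside -0.01. Without Mmp7-null scratched replicate 1 the medians were -0.06 for the Mmp7-null scratch response, -0.06 for genotype in scratched cultures and -0.12 for the difference between responses, beside -0.01, 0.0065 and 0.02 for all detected genes. Ribosomal protein genes also had negative medians: for scratch in Mmp7-null cultures the median was -0.17 over 76 mitochondrial ribosomal protein genes (74 negative, 9 called lower) and -0.14 over 42 cytosolic ones (41 negative, 4 called lower), and -0.11 and -0.08 without Mmp7-null scratched replicate 1. Over all genes 2.45% were called lower in that comparison. Without that array 5 mitochondrial and 1 cytosolic ribosomal protein genes were called lower, beside 1.36% of all and 2.12% of detected genes. For scratch in wild-type cultures the ribosomal medians were -0.08 (mitochondrial, 56 of 76 negative) and -0.08 (cytosolic, 35 of 42 negative), where the subunits had 0.04. The difference between responses without that array had medians of -0.02 for both ribosomal lists and -0.12 for the subunits. No test set these lists against the subunits.

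For most members the data bound the size of a change. The 95% interval of the log2 fold change lay within 0.5 either way for 70 of 76 detected members for scratch in Mmp7-null cultures and for 72 for scratch in wild-type cultures. For genotype it did so for 73 members in scratched and 75 in uninjured cultures, and for 67 in the difference between responses. Within 0.25 either way it lay for 34 and 56 members for scratch in Mmp7-null and wild-type cultures, for 38 and 51 for genotype in scratched and uninjured cultures, and for 9 in the difference between responses.

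**Figure D2:**
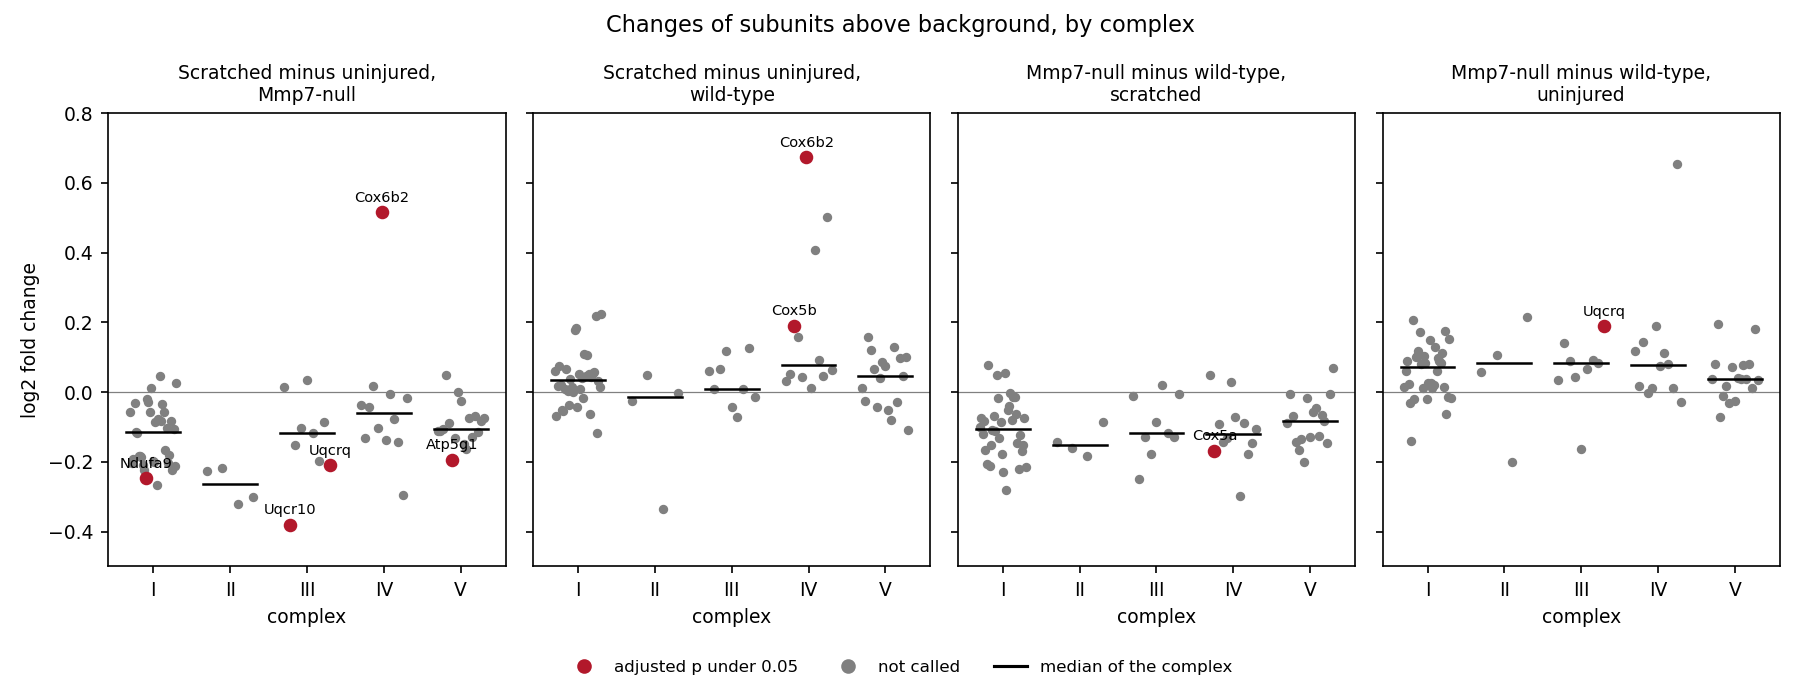
Log2 fold change of each detected member (vertical axis) by complex (horizontal axis) for scratch in Mmp7-null and wild-type cultures and for genotype in scratched and uninjured cultures; red points passed the adjusted p threshold of 0.05 and black lines are medians. Cox6b2 stands above the other subunits in both scratch panels, at 0.51 in Mmp7-null and 0.67 in wild-type cultures, while the unlabelled high point for genotype in uninjured cultures is the dim Cox7c at 0.65, which was not called.

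Complex I, the NADH dehydrogenase, had 34 of 36 members above background, and 1 was called, in 1 comparison. The median change of its members was -0.11 for scratch in Mmp7-null cultures and 0.03 in wild-type cultures. Without Mmp7-null scratched replicate 1 the Mmp7-null median was -0.08. Ndufa9, an accessory subunit of the arm that binds ubiquinone, read 10.52, 10.81, 10.82 and 10.91 in Mmp7-null scratched cultures and 11.06, 11.09, 10.98 and 10.93 in Mmp7-null uninjured cultures. In wild-type cultures it read 10.86, 10.89, 10.89 and 10.88 when scratched, and 10.79, 10.89, 10.86 and 10.83 when uninjured. The Mmp7-null scratched arrays all lay below the Mmp7-null uninjured ones, with the highest of the scratched arrays just under the lowest of the uninjured ones. Ndufa9 fell by 0.25 on scratching Mmp7-null cultures (SE 0.07, limma adjusted p = 0.0489). The log2 fold change was smaller, -0.165, without Mmp7-null scratched replicate 1. The call was near the threshold: it was kept in 4 of 26 alternatives, and among the 16 that leave out 1 array it was kept without Mmp7-null scratched replicate 1 (adjusted p = 0.0465) and replicate 4, and lost without any of the other 14 (adjusted p = 0.0502 to 0.138).

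No other complex I subunit was called. The 7 members of the N module, which binds and oxidises NADH, had a median of -0.17 for scratch in Mmp7-null cultures and 0.02 in wild-type cultures. Among them Ndufv2, an iron-sulphur subunit, had -0.21 in Mmp7-null cultures (SE 0.06, limma adjusted p = 0.0801), and -0.15 without Mmp7-null scratched replicate 1. The 5 members of the Q module, which passes electrons to ubiquinone and includes Ndufa9, had medians of -0.18 in Mmp7-null and 0.04 in wild-type cultures. The remaining 22 accessory subunits had medians of -0.08 in Mmp7-null and 0.04 in wild-type cultures. Without that array the Mmp7-null medians were -0.10 for the N module, -0.11 for the Q module and -0.04 for the rest. Ndufb6, a membrane arm subunit, had -0.27 in Mmp7-null cultures (SE 0.12, adjusted p = 0.266), and -0.14 without the same array.

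Complex II, succinate dehydrogenase, is made from 4 nuclear genes, all well above background, and none was called in any comparison. All 4 had negative values for scratch in Mmp7-null cultures. Their median of -0.26 was the most negative of the 5 complexes in that comparison, and it was -0.19 without Mmp7-null scratched replicate 1. Sdha, the flavoprotein that oxidises succinate, read 10.54, 10.76, 10.87 and 10.92 in Mmp7-null scratched cultures, against 11.04, 10.93, 11.03 and 11.00 in Mmp7-null uninjured cultures, a log2 fold change of -0.23 (SE 0.07, limma adjusted p = 0.0905). Sdhb, the iron-sulphur subunit, had -0.22 (SE 0.07, adjusted p = 0.0801). Leaving out Mmp7-null scratched replicate 1 gave values of -0.15 for Sdha and -0.14 for Sdhb.

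Sdhc and Sdhd anchor complex II in the membrane. Sdhc read 9.39, 9.87, 9.43 and 9.64 in Mmp7-null scratched cultures and 9.90, 9.96, 9.95 and 9.80 in Mmp7-null uninjured cultures. It read 9.88, 10.03, 9.53 and 9.63 in wild-type scratched and 10.05, 10.003, 10.10 and 10.26 in wild-type uninjured cultures, so that the scratched and uninjured arrays overlapped in both genotypes. The changes were -0.32 in Mmp7-null cultures (SE 0.12, adjusted p = 0.151) and -0.34 in wild-type cultures (SE 0.12, adjusted p = 0.136). Sdhd had -0.30 in Mmp7-null (SE 0.10, adjusted p = 0.119) and -0.004 in wild-type cultures, and the difference between those responses was not called (adjusted p = 0.657). The Mmp7-null values were -0.26 for Sdhc and -0.23 for Sdhd when scratched replicate 1 was left out.

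Complex III, which passes electrons from ubiquinol to cytochrome c, had all 9 members above background, and 2 fell on scratching Mmp7-null cultures. Uqcr10 read 10.02, 10.30, 10.05 and 10.34 in Mmp7-null scratched cultures, against 10.55, 10.58, 10.62 and 10.48 in Mmp7-null uninjured cultures. It read 10.51, 10.35, 10.36 and 10.47 in wild-type scratched cultures, against 10.32, 10.52, 10.32 and 10.50 in wild-type uninjured cultures. The Mmp7-null scratched arrays were the 3 lowest of the 16 together with one near the lower wild-type values, and none overlapped the Mmp7-null uninjured group.

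Uqcr10 fell by 0.38 on scratching Mmp7-null cultures, to 0.768 of the uninjured level (SE 0.08, limma adjusted p = 0.0119). Its value in wild-type cultures was 0.01 (adjusted p = 0.965), and the difference between the responses was -0.39 (SE 0.11, adjusted p = 0.275), which did not pass. The call was kept in 25 of 26 alternatives and lost when the 8 Mmp7-null arrays were fitted alone (adjusted p = 0.0667). Without Mmp7-null scratched replicate 1 it was -0.33 (adjusted p = 0.034). Of the other probe sets for Uqcr10, 1 fell by 0.63 (limma adjusted p = 0.00321 over all probe sets) and 1 had -0.42 (adjusted p = 0.0616).

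Uqcrq, another small subunit, read 10.71, 10.87, 10.81 and 10.76 in Mmp7-null scratched cultures and 11.01, 11.02, 11.08 and 10.88 in Mmp7-null uninjured cultures. It read 10.70, 10.78, 10.84 and 10.86 in wild-type scratched and 10.74, 10.80, 10.80 and 10.90 in wild-type uninjured cultures. The Mmp7-null uninjured group was the high one; replicate 4 of that group overlapped replicate 4 of the wild-type uninjured group. Uqcrq fell by 0.21 on scratching Mmp7-null cultures (SE 0.05, limma adjusted p = 0.031), and it was higher by 0.19 in uninjured Mmp7-null than in uninjured wild-type cultures (SE 0.05, adjusted p = 0.0499). Both calls use the same Mmp7-null uninjured arrays. The scratch value was -0.18 without Mmp7-null scratched replicate 1, and was then not called (limma adjusted p = 0.0872).

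The fall of Uqcrq was kept in 12 of 26 alternatives and was lost without Mmp7-null uninjured replicate 1, 2 or 3 or without Mmp7-null scratched replicate 1, 3 or 4 (adjusted p = 0.0588 to 0.0931). The genotype call was kept in 8 of 27 and lost without 10 of the 16 arrays taken singly (Mmp7-null scratched 3 and 4, Mmp7-null uninjured 1, 2 and 3, wild-type scratched 2 and 3, wild-type uninjured 1, 2 and 3, with adjusted p = 0.0557 to 0.147). With spike-in set, a possible batch read from the array's control transcripts, as a block term the genotype value was 0.29 (adjusted p = 0.0976). Within the 1 set that holds both genotypes, which has 1 wild-type uninjured array, it was 0.24. With the mean of its 4 probe sets, 3 of them at background, neither call was kept: the fall was -0.07 (adjusted p = 0.239) and the genotype value 0.03 (adjusted p = 0.922). Among the other members, the catalytic subunits Cyc1 and Uqcrfs1, which hold cytochrome c1 and the Rieske iron-sulphur centre, had 0.02 (adjusted p = 0.916) and -0.20 (adjusted p = 0.0816) for scratch in Mmp7-null cultures, and 0.09 and -0.14 without Mmp7-null scratched replicate 1.

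**Figure D3:**
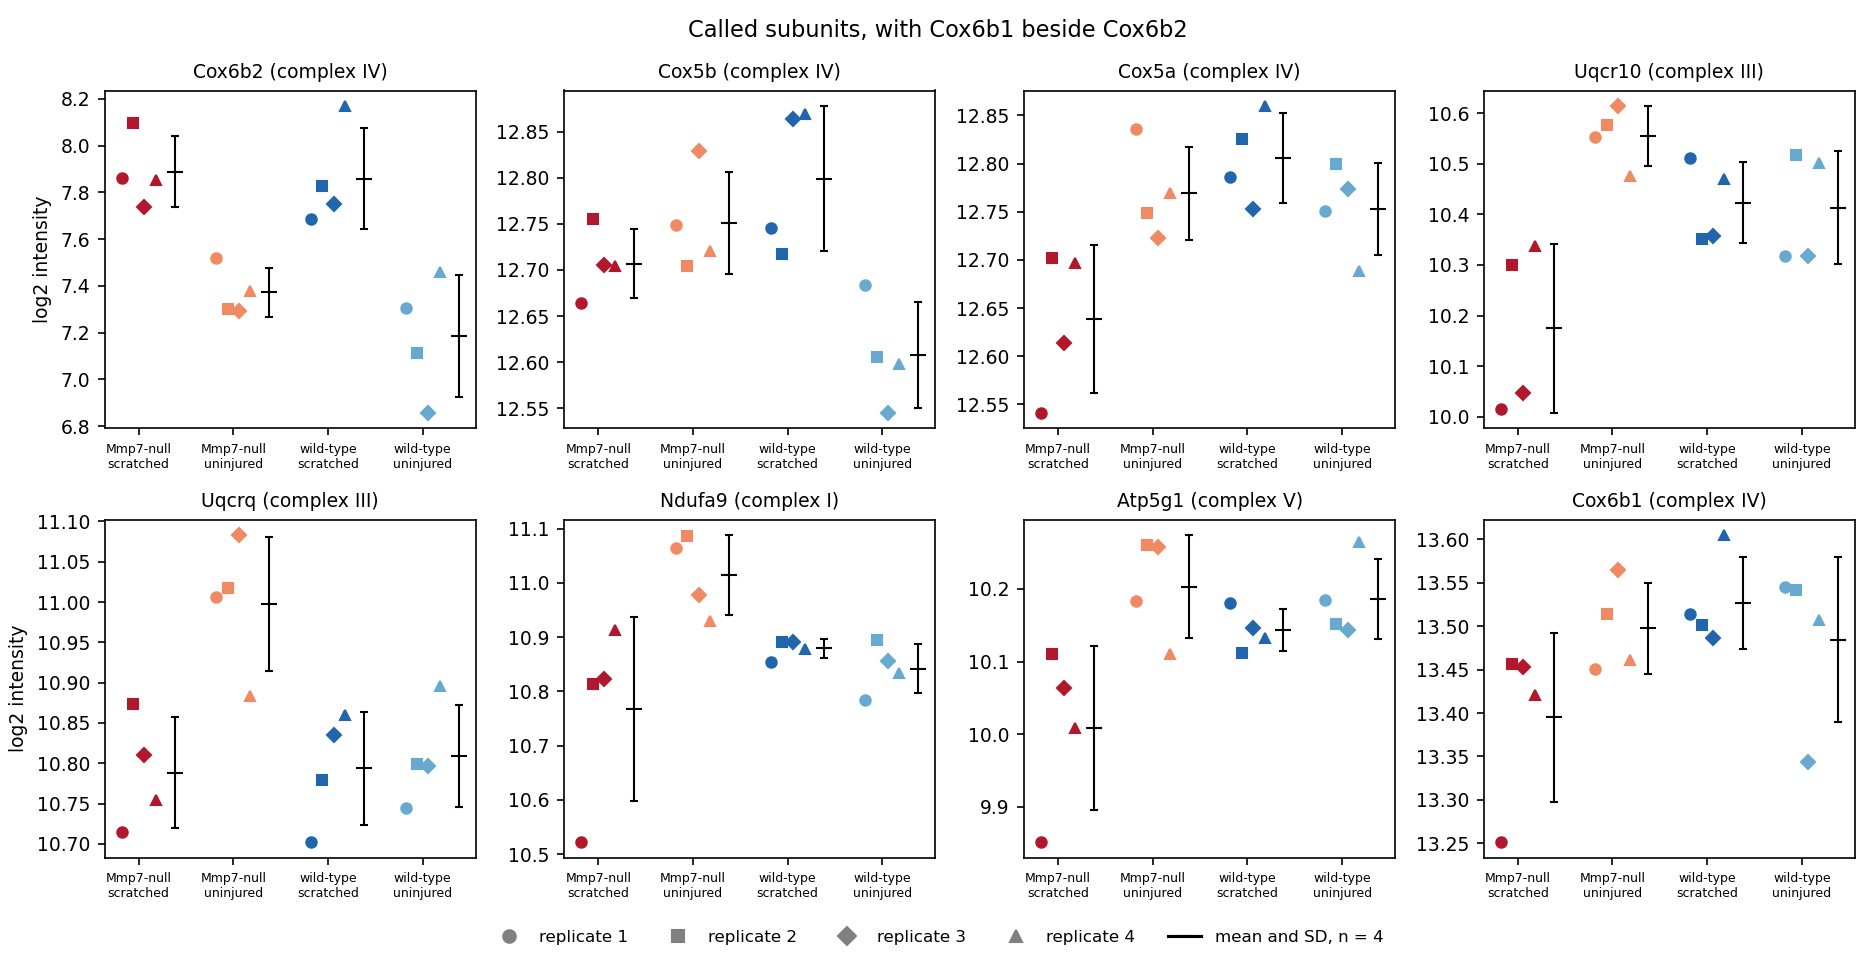
Log2 intensity (vertical axis, a separate range for each gene) of the 7 called members and of Cox6b1 on all 16 arrays, by group; symbols mark replicates, and bars give mean and SD (n = 4). Both scratched groups of Cox6b2 lie above both uninjured groups, and in Uqcr10 the 4 Mmp7-null scratched arrays lie at 10.02 to 10.34, below the Mmp7-null uninjured arrays.

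Complex IV, cytochrome c oxidase, held the member that rose most. Cox6b2, a form of subunit VIb known chiefly from testis, read 7.86, 8.10, 7.74 and 7.85 in Mmp7-null scratched cultures, against 7.52, 7.30, 7.29 and 7.38 in Mmp7-null uninjured cultures. It read 7.68, 7.83, 7.75 and 8.17 in wild-type scratched cultures, against 7.31, 7.11, 6.86 and 7.46 in wild-type uninjured cultures. All 8 scratched arrays lay above all 8 uninjured arrays.

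Cox6b2 rose 1.43-fold on scratching Mmp7-null cultures (log2 0.51, SE 0.13, limma adjusted p = 0.0377) and 1.595-fold on scratching wild-type cultures (log2 0.67, SE 0.13, adjusted p = 0.00757). The responses differed by -0.16 (95% interval -0.55 to 0.24, adjusted p = 0.764). The wild-type call was kept in 24 of 26 alternatives, being lost with the 8 wild-type arrays alone (adjusted p = 0.0599) and without the 3 arrays that stood apart (0.57, adjusted p = 0.0628). The Mmp7-null call was kept in 16 of 26 and lost without Mmp7-null uninjured replicate 2, 3 or 4, without Mmp7-null scratched replicate 1, 2 or 4 or without wild-type scratched replicate 2 (0.44 to 0.53, adjusted p = 0.0519 to 0.101), and with spike-in set as a block term (adjusted p = 0.0686). The Mmp7-null value was 0.52 without Mmp7-null scratched replicate 1. The gene had 1 probe set.

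Its counterpart Cox6b1, the form made in most tissues, had a mean of 13.48 and was not called. Its change was -0.10 on scratching Mmp7-null cultures (95% interval -0.22 to 0.01; -0.05 without replicate 1 of the scratched group) and 0.04 on scratching wild-type cultures (95% interval -0.07 to 0.16). The intervals of Cox6b2 ran from 0.24 to 0.79 in Mmp7-null and from 0.39 to 0.95 in wild-type cultures. The difference between these isoforms was not tested.

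Summed marker levels of other cell types also differed between scratched and uninjured groups. Over all genes, 2.27% rose and 2.45% fell on scratching Mmp7-null cultures, and 2.55% rose and 2.3% fell on scratching wild-type cultures. Of 14 fibroblast and smooth muscle markers 5 lay above background, and 1 rose in Mmp7-null and 2 in wild-type cultures on scratching, with 0 falling in either; Dcn rose by 1.23 in Mmp7-null and 1.58 in wild-type cultures on scratching (log2). The log2 of the list's summed intensity was 8.79 to 9.55 in Mmp7-null scratched and 7.91 to 8.68 in Mmp7-null uninjured cultures, and 7.85 to 8.50 in wild-type scratched and 7.05 to 7.44 in wild-type uninjured cultures, while the defining markers Col1a1, Col1a2, Pdgfra, Pdgfrb and Lum were at background. Of 16 leukocyte markers 6 lay above background; 0 were called in Mmp7-null cultures, while 2 rose and 0 fell in wild-type cultures. Their summed level was 14.21 to 14.36 in Mmp7-null scratched and 13.89 to 14.18 in Mmp7-null uninjured cultures, and 14.27 to 14.52 in wild-type scratched and 13.90 to 14.17 in wild-type uninjured cultures; Ptprc, Itgam and Cd3e were at background. Of 13 basal cell markers, all above background, 1 rose and 2 fell in Mmp7-null and 1 rose and 3 fell in wild-type cultures. Their summed level was 14.29 to 14.57 in Mmp7-null scratched and 14.72 to 14.82 in Mmp7-null uninjured cultures, and 14.57 to 14.62 in wild-type scratched and 14.66 to 14.83 in wild-type uninjured cultures. Of 22 proliferation genes 10 rose and 0 fell in Mmp7-null (median 0.32) and 14 rose and 1 fell in wild-type cultures (median 0.90). Without Mmp7-null scratched replicate 1 the Mmp7-null counts of these lists were the same, and the proliferation median was 0.42. The part of any of these lists in the subunit results was not tested, and in these bulk samples fewer cells of a type and less RNA per cell cannot be told apart.

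None of the other tissue-restricted isoforms of complex IV was called in limma. Cox7a1, the form of heart and skeletal muscle, was dim (mean 3.89) and had -0.005 for scratch in Mmp7-null and 0.41 in wild-type cultures (SE 0.13, adjusted p = 0.0968 for wild-type). Cox4i2, known from lung and from low oxygen, read 2.34 to 2.65 on all arrays, and Cox6a2, Cox7b2 and Cox8c, forms of muscle or testis, read 2.21 to 2.30, 2.32 to 2.44 and 1.82 to 1.87. These were at background on every array, so no change could be measured. Cox8b read 2.51 to 2.61 on 14 arrays and 3.41 and 3.75 on replicate 3 of the wild-type scratched and wild-type uninjured groups.

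Of the 10 widely expressed members of complex IV, Cox7a2l included, 2 were called, once each. For scratch 9 of the 10 had a negative value in Mmp7-null cultures (median -0.09, and -0.04 with 7 of 10 negative without scratched replicate 1) and all 10 a positive one in wild-type cultures (median 0.06). Cox5b, a zinc-binding subunit on the matrix side, read 12.66, 12.76, 12.71 and 12.70 in Mmp7-null scratched cultures and 12.75, 12.70, 12.83 and 12.72 in Mmp7-null uninjured cultures. It read 12.75, 12.72, 12.86 and 12.87 in wild-type scratched cultures, against 12.68, 12.61, 12.54 and 12.60 in wild-type uninjured cultures. The wild-type groups did not overlap, the uninjured arrays being the low ones.

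Cox5b rose by 0.19 on scratching wild-type cultures (SE 0.04, limma adjusted p = 0.0197). The call was kept in 16 of 26 alternatives and lost without wild-type uninjured replicate 2, 3 or 4 or wild-type scratched replicate 3 or 4 (0.17 to 0.19, adjusted p = 0.0505 to 0.0622). Without the 3 arrays that stood apart the value was 0.12 (limma adjusted p = 0.158). The call was also lost with the 8 wild-type arrays alone (adjusted p = 0.0922) and without the dimmest 40% of genes (adjusted p = 0.0648). Centring arrays on their median gave 0.15 (adjusted p = 0.0575). The gene has 6 probe sets, and others among them gave 0.23, 0.08 and 0.07. The mean of all its probe sets was not called (0.10, adjusted p = 0.218). Cox7c, read by a dim probe set with a mean of 4.61, had 0.50 for scratch in wild-type cultures (adjusted p = 0.195).

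Cox5a, the matrix-side subunit beside it, read 12.54, 12.70, 12.61 and 12.70 in Mmp7-null scratched cultures, against 12.79, 12.83, 12.75 and 12.86 in wild-type scratched cultures. The 4 Mmp7-null arrays all lay lower. Its uninjured values were 12.84, 12.75, 12.72 and 12.77 in Mmp7-null and 12.75, 12.80, 12.77 and 12.69 in wild-type cultures, and these overlapped. Cox5a was lower by 0.17 in scratched Mmp7-null than in scratched wild-type cultures, at -0.17 (SE 0.04, limma adjusted p = 0.0266).

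The Cox5a call was kept in 16 of 27 alternatives. It was lost without Mmp7-null scratched replicate 1 or 3 or wild-type scratched replicate 2 or 4 (-0.16 to -0.14, limma adjusted p = 0.064 to 0.068). It was also lost with the 8 scratched arrays alone (adjusted p = 0.133) and without the dimmest 40% of genes (adjusted p = 0.0895). The same held with arrays centred on their median (-0.13, adjusted p = 0.143) and without the 3 arrays that stood apart (-0.135, adjusted p = 0.129). With spike-in set added as a block term it was lost too (-0.16, adjusted p = 0.314). Within the set that holds both genotypes, which has 1 wild-type scratched array, the value was -0.13. Its second probe set gave -0.14 (adjusted p = 0.00649 over all probe sets) and another 0.02 (adjusted p = 0.808).

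The remaining widely expressed forms were not called. For scratch in Mmp7-null and wild-type cultures, Cox4i1 had -0.04 and 0.03, and Cox6a1 had 0.02 and 0.16. Cox7a2 had -0.08 and 0.09, and Cox8a had -0.02 and 0.06. Without Mmp7-null scratched replicate 1 the Mmp7-null values were 0.01 for Cox4i1, 0.04 for Cox6a1, -0.0074 for Cox7a2 and 0.0063 for Cox8a, so that the signs of Cox4i1 and Cox8a turned. Ndufa4 had -0.18 and -0.05 (smallest limma adjusted p = 0.138), and its largest value was 0.21 for genotype in uninjured cultures (adjusted p = 0.0971). Without Mmp7-null scratched replicate 1 its Mmp7-null scratch value was -0.20. A second probe set for Cox6a1 was called for genotype in scratched cultures at -0.29 (limma adjusted p = 0.00138 over all probe sets), where the brighter one gave -0.14.

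Complex V, the ATP synthase, had all 17 members above background, and 1 was called. Atp5g1, one of 3 genes for the rotating c ring, read 9.85, 10.11, 10.06 and 10.01 in Mmp7-null scratched cultures and 10.18, 10.26, 10.26 and 10.11 in Mmp7-null uninjured cultures. It read 10.18, 10.11, 10.15 and 10.13 in wild-type scratched and 10.19, 10.15, 10.14 and 10.26 in wild-type uninjured cultures. The Mmp7-null scratched arrays were low, and their highest met the lowest Mmp7-null uninjured array.

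Atp5g1 fell by 0.19 on scratching Mmp7-null cultures (SE 0.05, limma adjusted p = 0.0477). The call was kept in 3 of 26 alternatives: of the 16 that leave out 1 array, those without Mmp7-null uninjured replicate 4 and without Mmp7-null scratched replicate 2 kept it, and the other 14 did not (-0.21 to -0.14, adjusted p = 0.0516 to 0.137). The value without Mmp7-null scratched replicate 1 was -0.14. Its second probe set is at background, and the mean of both gave -0.10 (adjusted p = 0.132). The other genes of the c ring, Atp5g2 and Atp5g3, encode the same mature protein; they had -0.13 (adjusted p = 0.413) and 0.0001 (adjusted p = 0.999) in this comparison, and -0.07 and -0.0012 without Mmp7-null scratched replicate 1. Atp5c1, the shaft that turns inside the catalytic head, came near the threshold for genotype in uninjured cultures at 0.19 (SE 0.05, adjusted p = 0.0554).

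**Figure D4:**
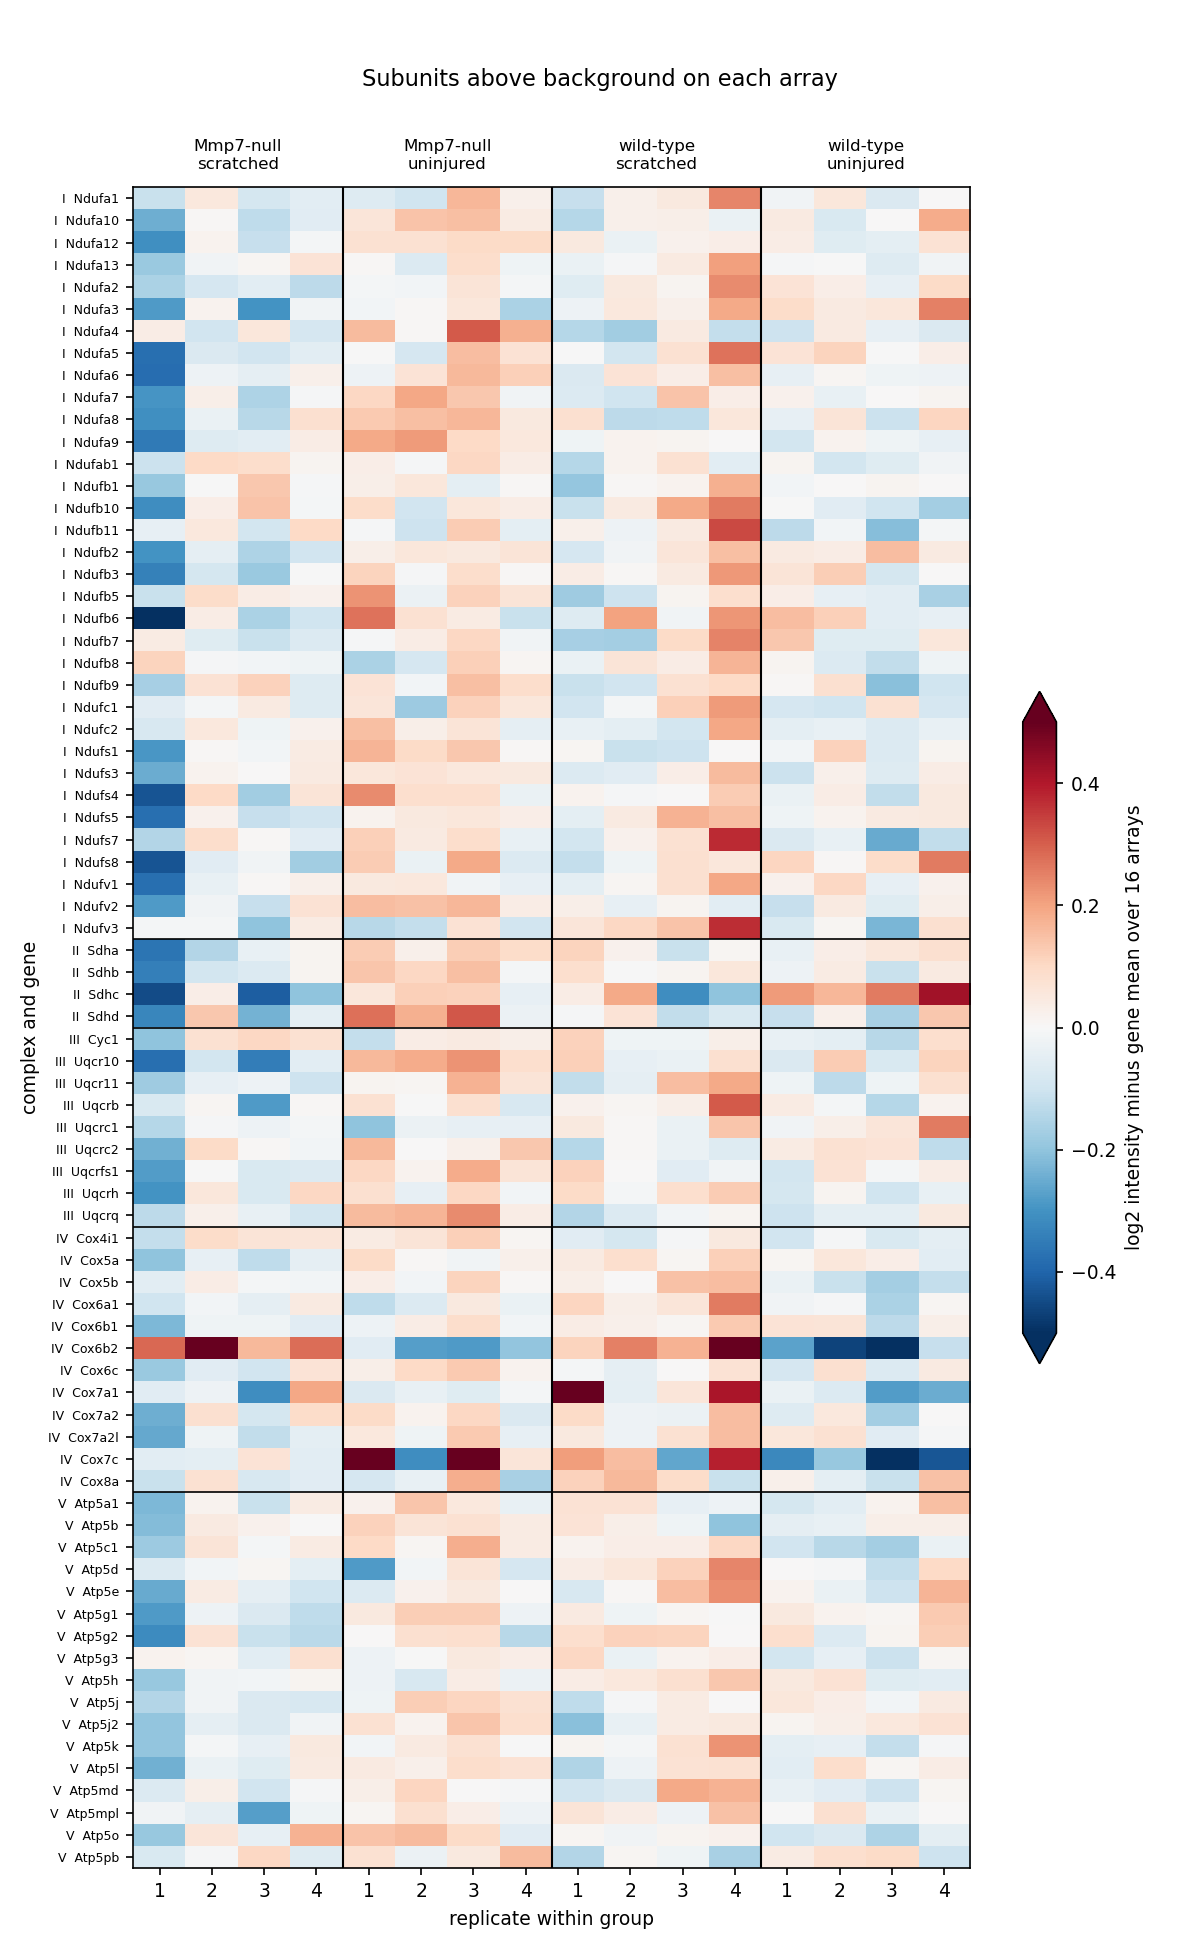
Log2 intensity minus each gene's mean over 16 arrays (colour, saturated at 0.5 either way) for the 76 detected members (rows, by complex) on each array (columns, by group and replicate). The blue column at the left is Mmp7-null scratched replicate 1, below the mean of its partners for 69 of 76 members, and the row that is red in both scratched groups and blue in both uninjured groups is Cox6b2.

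Subunits varied together within groups. Over the 2850 pairs of detected members the median Pearson correlation of deviations from group means was 0.42 across the 16 arrays, 0.47 for pairs within a complex and 0.40 for pairs from different complexes. Without Mmp7-null scratched replicate 1 the median was 0.28, with 0.34 within and 0.25 between complexes. All members share the arrays and their normalization, so these are descriptions only.

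Assembly factors are proteins that help build the complexes without being part of them. Of 52 measured assembly factors, 8 fell (15.4%, beside 2.45% of all genes) and 0 rose on scratching Mmp7-null cultures, with a median of -0.16. With replicate 1 of the scratched group left out, 3 fell (5.77%, beside 1.36% of all and 2.12% of detected genes), with a median of -0.12. The 8 included Sdhaf4, which helps assemble complex II (-0.32, limma adjusted p = 0.00218), the complex IV factors Coa3 (-0.29, adjusted p = 0.00579) and Cox20 (-0.34, adjusted p = 0.00974), and the complex I factor Ndufaf7 (-0.26, adjusted p = 0.0267). Sdhaf4, Coa3 and Cox20 were the 3 that were called without that array too. On scratching wild-type cultures 0 rose (beside 2.55% of all genes) and 2 fell (3.85%, beside 2.3%), Atpsckmt (-0.41) and the complex I factor Tmem126b (-0.55).

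Sdhaf4 was also the one assembly factor whose scratch responses differed between genotypes, by -0.46 (SE 0.07, limma adjusted p = 0.0212). In uninjured cultures 3 assembly factors were higher in Mmp7-null than in wild-type (5.77%, beside 2.3% of all genes) and 0 lower (beside 2.5%). The 3 were the complex I factor Ndufaf3 (0.52, limma adjusted p = 0.000891), Sdhaf4 (0.30) and Ndufaf7 (0.23). In scratched cultures 1 was higher (1.92%, beside 3.29% of all genes), Ndufaf3 (0.41), and 4 were lower (7.69%, beside 2.92%). Among the 4 were Coa3 (-0.29), Higd1a (-0.39) and the copper-handling protein Cox19 (-0.35). Without Mmp7-null scratched replicate 1, 1 was higher and 3 were lower. The difference in call rates between assembly factors and subunits was not tested. Genotype overlaps in part with spike-in set, and the assembly factors were not fitted as a list with that set as a block term.

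A list of 21 genes covered the tricarboxylic acid cycle and also held Pdha1, a subunit of pyruvate dehydrogenase. Of these 0 rose and 4 fell (19%, beside 2.45% of all genes) on scratching Mmp7-null cultures. Among the 4 were Pdha1 (-0.19) and Idh3g (-0.24), and 0 fell without Mmp7-null scratched replicate 1. In wild-type cultures 2 rose, Fh1 (0.34) and Cs (0.27), and 1 fell, Suclg2 (-0.26). Of 28 regulators of mitochondrial biogenesis 1 rose and 0 fell on scratching Mmp7-null cultures, Epas1, a hypoxia-inducible factor (0.24, limma adjusted p = 0.0453), and 1 was higher in scratched Mmp7-null than in scratched wild-type cultures, the coactivator Pprc1 (0.53, adjusted p = 0.0489); without Mmp7-null scratched replicate 1 neither was called. In this list 0 rose and 2 fell on scratching wild-type cultures, Gabpa, the DNA-binding subunit of GABP (-0.34, limma adjusted p = 0.0302), and Tfam, which packages mitochondrial DNA (-0.23, adjusted p = 0.031). The glycolytic enzymes Aldoc and Hk2 rose in both genotypes, Aldoc by 1.19 in Mmp7-null and 0.99 in wild-type cultures and Hk2 by 0.59 in Mmp7-null and 0.49 in wild-type cultures. Of 18 glycolysis genes 3 rose and 1 fell in Mmp7-null and 3 rose and 2 fell in wild-type cultures. Beside these lists, 2.27% of all genes rose and 2.45% fell on scratching Mmp7-null cultures, and 2.55% rose and 2.3% fell on scratching wild-type cultures. For genotype in scratched cultures 3.29% of all genes were higher in Mmp7-null. The 1 probe set named for a subunit encoded in mitochondrial DNA, ND5, had -0.02 for scratch in Mmp7-null and 0.15 in wild-type cultures and was not called.

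Genes of multiciliated cells differed strongly by genotype on the same arrays. All 49 lay above background. In uninjured cultures 33 were higher in Mmp7-null than in wild-type (median 0.60), beside 2.3% of all genes, and 0 were lower, beside 2.5%. In scratched cultures 42 were higher in Mmp7-null than in wild-type (median 0.79), beside 3.29% of all genes, and 0 were lower, beside 2.92%. Without Mmp7-null scratched replicate 1 the 42 became 41 (median 0.78), beside 5.16% of detected genes. Their log2 summed intensity was 15.97 to 16.13 in Mmp7-null scratched and 15.49 to 15.70 in wild-type scratched cultures, and 15.80 to 16.11 in Mmp7-null uninjured and 15.42 to 15.52 in wild-type uninjured cultures. The respiratory subunits had medians of 0.06 in the uninjured and -0.11 in the scratched comparison. The part of cell composition in the subunit values was not tested. Genotype and spike-in set overlap in part, as 1 set holds only Mmp7-null and 1 only wild-type arrays. With the set as a block term, the genes called for genotype over the whole array went from 872 to 57 in uninjured cultures. They went from 1130 to 252 in scratched cultures. The multiciliated genes were not fitted that way as a list.

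**Figure D5:**
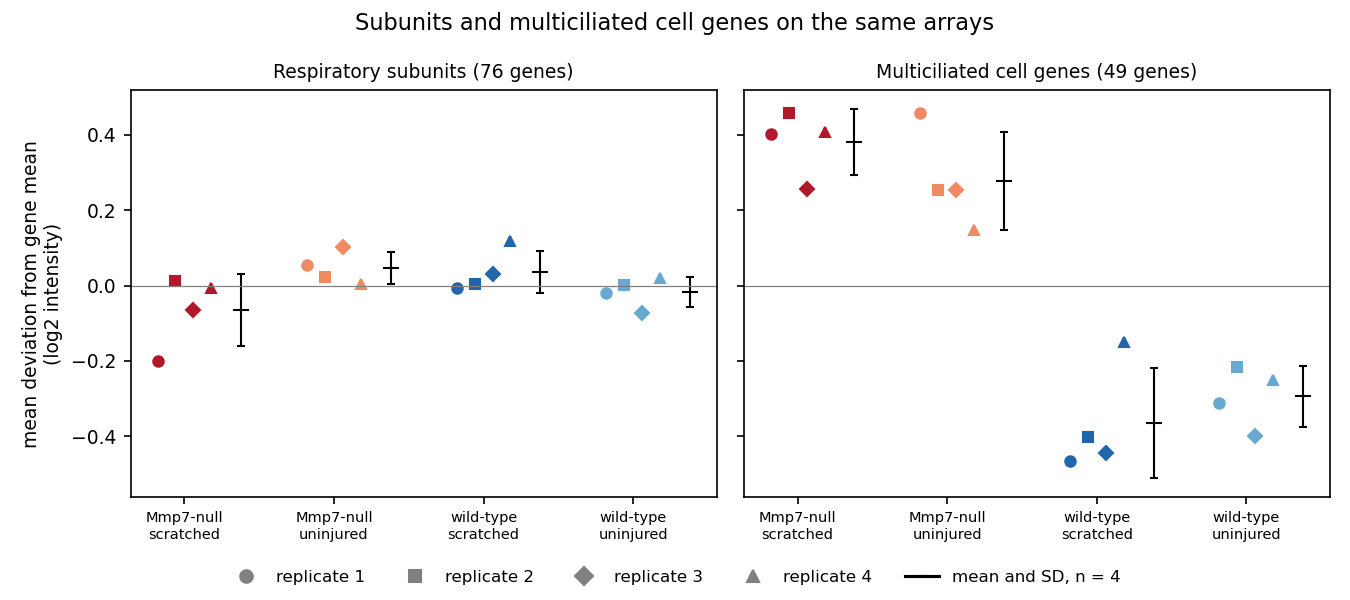
Mean deviation from each gene's mean over 16 arrays (vertical axis, log2 intensity) for the 76 detected respiratory subunits and for 49 multiciliated cell genes, by group; symbols mark replicates, and bars give mean and SD (n = 4). The multiciliated genes average 0.38 in Mmp7-null scratched and 0.28 in Mmp7-null uninjured cultures, and -0.37 and -0.29 in the matching wild-type cultures, while the subunits stay between -0.20 and 0.12 on every array.

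Promoter windows were found in RefSeq (GRCm38.p6) for 67 of the 83 members. Motifs were searched on both strands, and matches of different motifs may overlap, although none of these motifs contains another. The ETS core CCGGAAG lay in the windows of 25.4% of these members, beside 12.9% of 17492 protein-coding genes. The GCATGCG core of NRF1 lay in 14.9% beside 4.96%, and AAGATGG of YY1 in 14.9% beside 7.18%. These shares differed by complex. The ETS core lay in 4 of 32 complex I genes, 2 of 3 in complex II and 2 of 5 in complex III. It lay in 3 of 8 widely expressed complex IV genes and 6 of 15 in complex V. For complexes I to V in turn, the NRF1 core lay in 2, 1, 2, 1 and 4 of these genes. The YY1 letters lay in 6, 0, 0, 1 and 3. In complex I the ETS and NRF1 shares were near those of all genes. CCAAT lay in 41.8% beside 42.3%, and TATAAA in 11.9% beside 14.8%. Of the 4 tissue-restricted complex IV isoforms with a window, Cox6b2 among them, 0 held the ETS, NRF1 or YY1 letters, and 3 held CCAAT. The member windows had a median GC content of 58.5%, beside 56.3% for all, and no test of these shares was made.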

How the data were processed

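Total RNA from 16 cultures was hybridised to 1 array each. The deposited values are linear intensities summarised by RMA, per the submitters' processing notes, which give no version; the labels name the smaller A version of the Affymetrix mouse array, but the 45101 probe sets are those of the full version. Log2 values were computed here from the deposited intensities. Of these probe sets 64 were controls, 34945 carried 1 gene symbol and 932 several, and the last were left out. The probe set with the highest mean over 16 arrays stood for each of 18193 genes.

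Group means were fitted on all 16 arrays (12 residual degrees of freedom) with limma 3.58.1 in R 4.3.3, which was tested on simulated data, and 5 contrasts were adjusted by Benjamini-Hochberg over all genes. The number of arrays limits the precision. Array control transcripts showed 3 spike-in sets: 1 holds 4 Mmp7-null arrays, 1 holds 6 wild-type arrays, and 1 holds both genotypes. Alternatives changed the arrays in the fit, filter, probe set rule, variance model, weights, normalization and batch term. The members and gene lists were chosen with earlier results of these data known. Members that were called, and the tissue-restricted and widely expressed isoforms, were named by rule, as were up to 4 called genes per other list and comparison; other uncalled members named were chosen after their values were seen.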

Additional observations from a re-analysis of the deposited data

Results flagged for a closer look

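Within the groups of 4, an array was listed when its gap to the nearest partner, as a share of the group's range, passed Dixon's 95% critical value. Chance gives about 1 in 20 such cases, and 10 were found in 108 groups tested. On Mmp7-null scratched replicate 1, Cox4i1 was low at 12.945, against 13.124 to 13.155 on its partners (share 0.855), and Cox6b1 was low at 13.251, against 13.421 to 13.456 (share 0.831). On wild-type uninjured replicate 3, Cox8b was high at 3.748, against 2.536 to 2.597 (share 0.95), Cox4i2 was high at 2.65, against 2.392 to 2.436 (share 0.832), and the mean deviation of complex IV was low at -0.207, against -0.065 to -0.046 (share 0.883). On wild-type scratched replicate 3, Cox8b was high at 3.407, against 2.55 to 2.607 (share 0.933). On the same array 4 members at background were also high: Cox6a2 (share 0.961), Cox7b2 (share 0.918), Ndufa4l2 (share 0.953) and Ndufb4 (share 0.944). That array had the lowest upper quartile of intensities, 115.01. The part of array quality in these values was not tested.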

How the results depend on the processing

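Over the named members 2592 results stayed on their side of the threshold under an alternative, 112 lost and 12 gained a call. The sign changed in 129, and 0 of these were called in either fit. Calls over the whole array, both directions together, moved with the alternatives too. For genotype in uninjured cultures 872 genes became 1310 without the 3 arrays that stood apart and 1286 with array weights. They became 1106 with repeated quantile normalization and 57 with the spike-in block. For genotype in scratched cultures 1130 became 527 with the 8 compared arrays alone, and for scratch in Mmp7-null cultures 859 became 402. Counts of called members, not tested against these totals, moved as follows. With the 8 compared arrays alone, 0 fell in Mmp7-null and 0 rose in wild-type cultures on scratching, and 0 were lower in scratched and 0 higher in uninjured Mmp7-null cultures. Without the dimmest 40% of genes, 1 fell in Mmp7-null, 1 rose in wild-type, and 0 were lower in scratched Mmp7-null cultures. With the mean of probe sets, 1 rose in wild-type and 2 were lower in scratched Mmp7-null cultures. With trended, robust variance 1 fell in Mmp7-null and 0 were higher in uninjured Mmp7-null cultures. Array weights gave 4 higher in uninjured Mmp7-null cultures and medians of -0.0296 for genotype in scratched cultures and -0.0896 for the difference between responses. Repeated quantile normalization gave 3 higher in uninjured Mmp7-null cultures. With arrays centred on their median, 0 rose and 1 fell in Mmp7-null, 1 rose in wild-type, and 0 were called for either genotype comparison. With a block term for spike-in set, 0 rose and 2 fell in Mmp7-null, and 0 were called for either genotype comparison. Without the 3 arrays that stood apart, 0 rose and 2 fell in Mmp7-null, 0 rose in wild-type, 5 were higher in uninjured and 0 lower in scratched Mmp7-null cultures, and the medians were -0.0107 for genotype in scratched cultures and -0.0753 for the difference between responses. Within the spike-in set that holds both genotypes, 2 Mmp7-null arrays were set against 1 wild-type array per state, which is assumed to vary like the other groups; 0 were called for genotype and the scratched median was -0.0208.

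Over 24 same-numbered pairs of cultures the correlation of deviations was -0.218 to 0.307 (median -0.05). Over 72 differently numbered pairs it was -0.394 to 0.265 (median 0.0145). The labels do not give which cultures shared an animal, and these correlations cannot exclude pairing by replicate number. With the replicate number as a block, 0 members were higher in uninjured Mmp7-null cultures (Uqcrq 0.19, limma adjusted p = 0.062), and the calls of Cox5a (adjusted p = 0.0502), Ndufa9 (adjusted p = 0.0646) and Atp5g1 (adjusted p = 0.0852) were lost.

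Leaving out each array in turn, 0 to 1 rose and 1 to 6 fell in Mmp7-null cultures (median -0.14 to -0.06), and 1 to 3 rose in wild-type cultures (median 0.02 to 0.05). For genotype 0 to 4 were lower in scratched cultures (median -0.14 to -0.06) and 0 to 3 higher in uninjured cultures (median 0.045 to 0.08). The difference between responses gave 0 calls throughout (median -0.19 to -0.12). Over all genes, both directions together, 516 to 943 were called for scratch in Mmp7-null and 591 to 1125 in wild-type cultures. For genotype 809 to 1135 genes were called in scratched and 480 to 1049 in uninjured cultures. Members at background give no measurable change.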
